A study of Mus musculus with 30 samples.

Results

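The deletion of Myocd in the developing mouse airway was compared between trachea and lung at E18.5, shortly before birth. The quantity described is a difference of differences: the mutant minus control change in trachea, minus the mutant minus control change in lung, on the log2 scale. It was computed from 20 of the 30 libraries of the series, which are all of its E18.5 libraries. Below 0, a gene fell more or rose less in mutant trachea than in mutant lung; above 0, the reverse. The 6 mutant lungs and 6 mutant tracheas were labelled Tbx4rtTAi/+; tetOcrei/+; MyocdF/F, and the 4 control lungs and 4 control tracheas Tbx4rtTAi/+; tetOcrei/+; MyocdF/+. Controls therefore also carried both transgenes and 1 floxed Myocd allele. In this system a Tbx4-driven reverse tetracycline transactivator switches on a tetracycline-dependent Cre in the lung and tracheal mesenchyme when doxycycline is given; no source used here gives the time of induction. Each library was made from the right lung lobes or the trachea of 1 embryo. The E13.5 libraries hold lung only and were not used.

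Myocardin, the product of Myocd, is a cofactor of serum response factor (SRF). Bound to SRF at DNA elements called CArG boxes, it switches on the contractile genes of smooth muscle, such as smooth muscle actin and myosin. In the trachea, smooth muscle forms a dorsal band across the open ends of the cartilage rings; in the lung, it wraps the airways and the vessels. Multiciliated cells, whose beating axonemes clear mucus, and secretory cells line both organs, and the trachea is richer in both at this stage.

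Levels are CPM, counts per M (mega) counts of the library, with library sizes scaled by edgeR's TMM method. They are not corrected for gene length, so they compare 1 gene between libraries and not 1 gene with another. Total counts ranged from 19.9 to 32.8 M in lung and from 11.7 to 30.5 M in trachea. Trachea libraries varied more from embryo to embryo: the common biological coefficient of variation was 0.398 among tracheas and 0.196 among lungs. Counts in genes annotated as ribosomal RNA made up 0.0648% to 0.087% of control lung and 0.0815% to 0.126% of mutant lung libraries (exact permutation test over 210 arrangements, two-sided, p = 0.0238, adjusted p = 0.0714 over 6 such tests). They made up 0.812% to 2.65% of control trachea and 0.758% to 14.5% of mutant trachea libraries (exact permutation p = 0.162, adjusted p = 0.279). Genes detected ranged from 22666 to 23982 in control lung and from 20379 to 22769 in mutant lung libraries (exact permutation p = 0.0143, adjusted p = 0.0714). Total counts in either tissue and genes detected in trachea had adjusted p of 0.279 or more in that test. Lung scaling factors were 1.003 to 1.027 in controls and 1.045 to 1.066 in mutants, without overlap. With the ribosomal share of each library as a covariate, the number of lung calls given below went from 130 to 2. That share and the genotype went largely together in lung, so the fit does not tell them apart. The part of the other library differences in the lung calls was not tested. Trachea mutant replicate 4 stood apart, with the highest ribosomal share, 12.4 M counts and a scaling factor of 0.77. Skeletal muscle genes summed to between 43.5 and 4684 CPM in tracheas and thyroid genes to between 15.4 and 648 CPM, with wide overlap of mutants and controls. Neighbouring tissue thus varied between the tracheas sequenced, and its part in the results below was not tested.

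Of 19859 genes tested, 5 passed an adjusted p of 0.05 for the trachea-lung difference (edgeR's quasi-likelihood test with Benjamini-Hochberg adjustment), which is 0.0252% of them. Myh11, Cytl1, Rgs2 and Mylk were below 0 (0.0201%), and Lrrc23 was above 0 (0.00504%). At an unadjusted p under 0.05 there were 1374 genes, 1040 above 0 and 334 below. The median difference over all genes tested was 0.07, and 40.9% of them were below 0. In the same fit, the mutant effect passed in trachea for 70 genes (0.352%), of which 60 fell (0.302%) and 10 rose (0.0504%). It passed in lung for 130 genes (0.655%), of which 127 fell (0.64%) and 3 rose (0.0151%). At an unadjusted p under 0.05, 1261 genes were higher and 1091 lower in trachea, and 178 were higher and 968 lower in lung. Among the genes tested, DESeq2 called 99 higher and 188 lower in trachea, and 9 and 207 in lung. limma-voom called 4 higher and 56 lower in trachea, and 4 and 201 in lung. The list counts below are to be read beside these. The numbers of calls in the 2 tissues are not a measure of the difference, since a gene can pass in 1 tissue and miss in the other with like effects.

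The count of 5 depended on single libraries. It was 2 without lung control replicate 4, 3 without lung control replicate 3 or trachea control replicate 3, 9 without lung control replicate 2 and 8 without trachea mutant replicate 4. It was 12 without the 2 shallowest libraries (trachea control replicate 2 and trachea mutant replicate 4), and all 5 genes were among the 12. With the ribosomal RNA share of each library as a covariate it was 1, Myh11.

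The targeted gene itself gave no clear difference. Myocd (chr11:65176561-65269989, minus strand, GRCm38) stood at 11.9, 6.04, 10.4 and 8.6 CPM in the 4 control lungs, and between 5.43 and 9.91 with a median of 6.5 in the 6 mutant lungs. Control tracheas had 5.15, 0.912, 8 and 5 CPM, and mutant tracheas ranged from 2.75 to 9.08 with a median of 5.62. Mutants and controls overlapped in both tissues. The trachea-lung difference was 0.64 ± 0.51 (SE; adjusted p = 0.838). Counts were summed over the whole gene, and the floxed exons are not named in the sources used here, so this level does not check the genotype.

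Of 30 listed genes of the smooth muscle contractile apparatus, 13 fell in mutant trachea, where 0.302% of all genes fell. In mutant lung none passed in edgeR, whose fit shares 1 spread between the tissues. In limma-voom, with weights by tissue, 1 passed in lung. Myh11 (chr16:14194535-14291372, minus strand) encodes the smooth muscle myosin heavy chain. The control tracheas had 220, 207, 366 and 300 CPM, and the 6 mutant tracheas ranged from 49.9 to 89.5 with a median of 67. The control lungs had 111, 108, 105 and 95.9 CPM, and the 6 mutant lungs ranged from 67.1 to 92.9 with a median of 78.1. Every mutant library lay below every control library of its tissue, but the gap was far wider in trachea. Myh11 was 2.6-fold higher in control trachea than in control lung, whereas the mutants had means of 67.1 CPM in trachea and 78.8 in lung. Its log2 change was -2.02 ± 0.14 (SE) in trachea (adjusted p = 2.77e-09) and -0.41 ± 0.14 in lung (adjusted p = 0.366). The difference was -1.61 ± 0.20 (adjusted p = 0.00035), and Myh11 passed in every alternative run, leave-one-out fits included.

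Mylk (chr16:34745210-35002420, plus strand) encodes myosin light chain kinase, the enzyme that phosphorylates smooth muscle myosin to start contraction. Control tracheas had 193, 199, 252 and 235 CPM, against 80.9 to 126 with a median of 116 in mutant tracheas, with no overlap. Control lungs had 818, 698, 781 and 725 CPM, against 662 to 757 with a median of 672 in mutant lungs, which overlapped. The log2 change was -1.002 ± 0.11 in trachea and -0.15 ± 0.11 in lung, and the difference was -0.86 ± 0.15 (adjusted p = 0.0303). Here the control level sets how the result reads. Mylk was 3.44-fold higher in control lung, so in CPM the loss was 110 ± 15.9 (SE) in trachea and 72.5 ± 30.9 in lung, and the difference of -37.6 ± 34.7 CPM was about as large as its error. Mylk was the least stable call: it missed the threshold when 11 of the 20 libraries were left out one at a time, with adjusted p up to 0.163. The annotation places 6.85% of its exon bases under other genes, E130310I04Rik and Gm21691.

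Rgs2 (chr1:143999338-144004161, minus strand) encodes a regulator that shuts off Gq signalling, the route by which contractile agonists act on smooth muscle. It stood at 73.9, 62.7, 89.3 and 87.3 CPM in control tracheas and at 23.8 to 43 with a median of 34.9 in mutant tracheas, without overlap. In control lungs it stood at 196, 191, 174 and 159 CPM and in mutant lungs at 149 to 180 with a median of 165, with overlap. The log2 change was -1.20 ± 0.12 in trachea and -0.14 ± 0.12 in lung, and the difference was -1.07 ± 0.18 (adjusted p = 0.0163). In CPM the loss was 44.4 ± 6.84 in trachea and 16.2 ± 9.83 in lung, from a control level 2.3-fold higher in lung. Rgs2 missed the threshold without lung control replicate 3 or 4 or trachea control replicate 3 or 4 (adjusted p up to 0.0951).

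**Figure D1:**
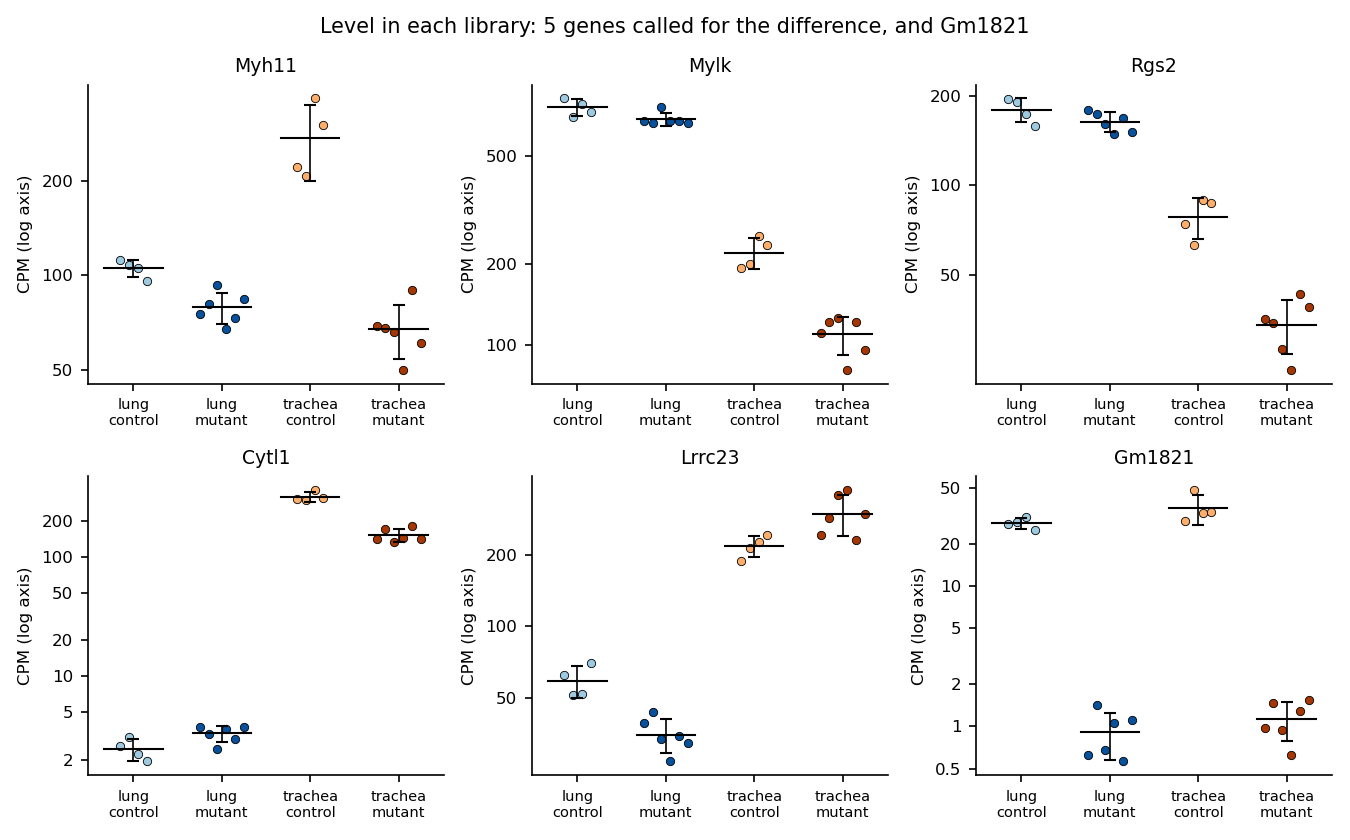
CPM in each of the 20 libraries (log axes) for Myh11, Mylk, Rgs2, Cytl1 and Lrrc23, the 5 genes called for the trachea-lung difference, and for Gm1821, called in both tissues. Points are libraries in replicate order, and bars are the mean and SD; in trachea the mutants of Myh11, Mylk, Rgs2 and Cytl1 lie below every control, and Gm1821 falls alike in both tissues.

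Over the 30 contractile smooth muscle genes listed, all of which were tested, the median difference was -0.41, against 0.07 for all genes. Of the 30, 23 were below 0, as were 40.9% of all genes. Only Myh11 and Mylk passed. In trachea 13 of the 30 fell (0.302% of all genes fell there) and none rose. These were Myh11, Mylk, Acta2, Actg2, Cnn1, Tagln, Myl9, Cald1, Lmod1, Synpo2, Jph2, Mrvi1 and Ppp1r12b. In lung 0 of 30 passed in edgeR, with 6 lower at an unadjusted p under 0.05, 0 in DESeq2 and 1 in limma-voom. The 13 were 11 with the ribosomal share as covariate or without the 2 shallowest libraries, and 7 without trachea control replicate 3 or 4. The summed level of the list was 3271 to 3858 CPM in control tracheas and 2037 to 2676 in mutant tracheas, a mean change of -1292 ± 179 CPM (-35.5%) without overlap. In lung the sums ran from 4335 to 4875 CPM over the controls and from 4068 to 4429 over the mutants, a mean change of -374 ± 124 CPM (-8.15%) with overlap. The most abundant members weigh most in these sums. In lung control replicate 1 Flna, Mylk and Csrp1 stood at 1502, 818 and 633 CPM and Cnn1 at 6.01. The lung sum thus does not give the change of low members such as Cnn1, described below. In bulk tissue, fewer smooth muscle cells and less RNA per cell cannot be told apart, here or for the cell types below.

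Several contractile genes with larger differences than Mylk did not pass. These and the other genes named beyond the 14 of the naming rule were chosen after their values were seen. Acta2, smooth muscle actin, stood at 317, 265, 350 and 381 CPM in control tracheas and at 32.4 to 196 with a median of 72.9 in mutant tracheas, and went from a mean of 118 to 108 CPM in lung. Its difference of -1.72 ± 0.53 had an adjusted p of 0.441; the SD over mutant tracheas was 64.3 CPM against 49.9 over controls. Cnn1, calponin, gave 66.4 ± 10.3 (SD) CPM in control and 12.5 ± 7.46 in mutant trachea, and 4.96 ± 1.08 and 2.51 ± 0.742 in control and mutant lung. Its lung libraries did not overlap either, but its lung change did not pass. Its difference was -1.41 ± 0.50 (adjusted p = 0.516). Synpo2, Actg2 and Tagln likewise had no overlap of mutants and controls in either tissue. None of them passed in lung, and how many of all genes lack overlap was not counted. Jph2, junctophilin 2, which ties calcium stores to the cell membrane, and Cald1, caldesmon, which restrains actomyosin, had overlapping lung libraries. Their log2 changes were -0.996 and -0.64 in trachea and -0.01 and -0.04 in lung. Their differences of -0.99 and -0.60 had adjusted p of 0.104 and 0.133.

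**Figure D2:**
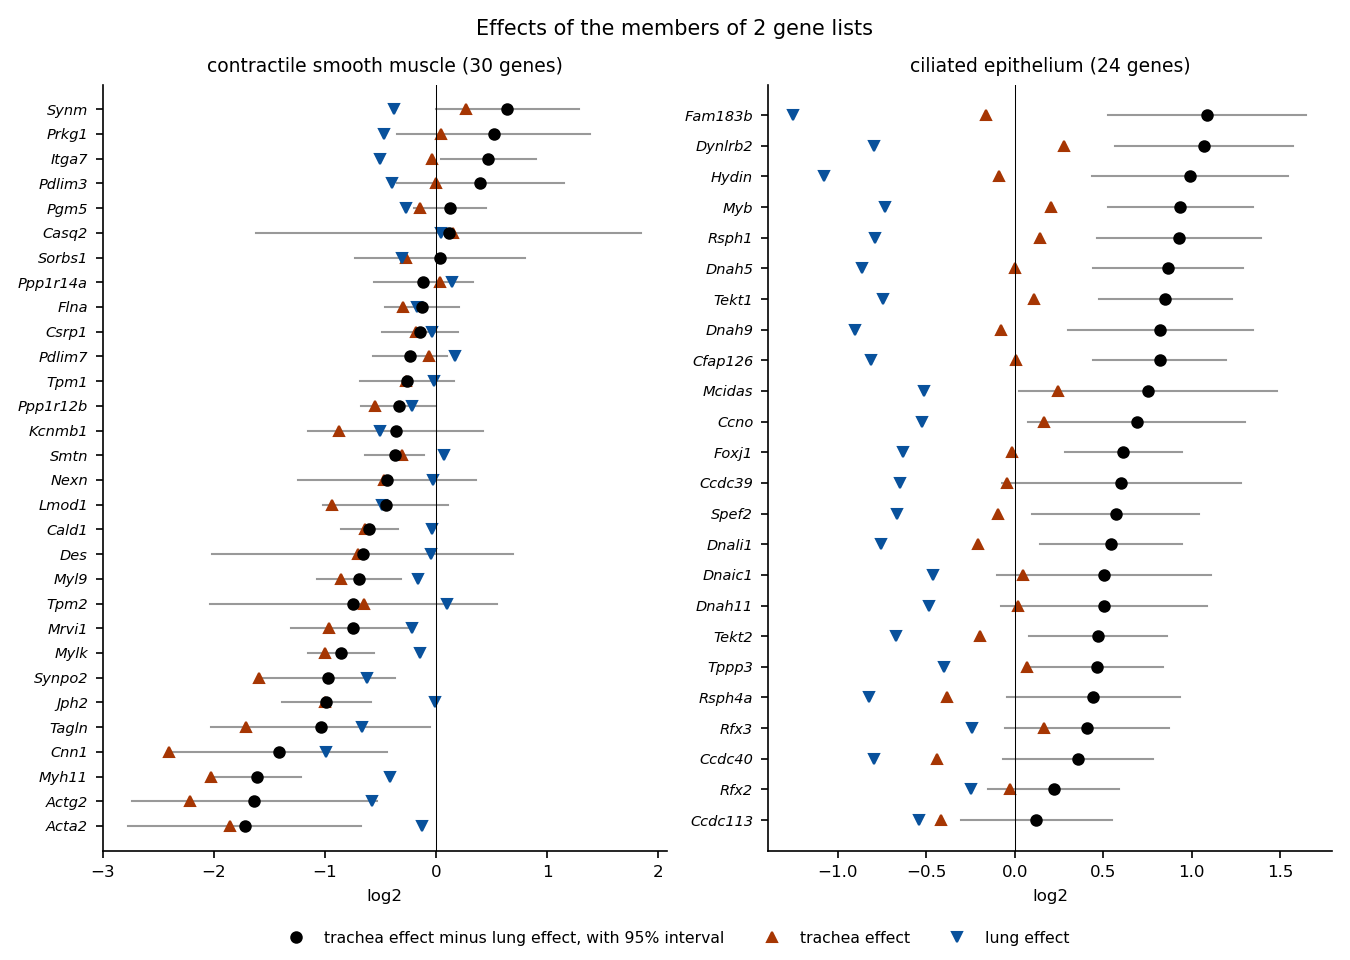
Log2 effects of each of the 30 contractile and 24 ciliated genes: down-pointing triangles give mutant minus control in lung, up-pointing triangles the same in trachea, and circles the trachea effect minus the lung effect with its 95% interval. In the contractile panel the trachea triangles lie far to the left for Cnn1, Actg2, Myh11 and Acta2; in the ciliated panel the lung triangles lie to the left of 0 for all 24 genes and the trachea triangles around 0.

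Of 15 SRF cofactors and targets tested, the median difference was -0.10, and 9 were below 0, as were 40.9% of all genes. By edgeR, 0 passed for the difference, with 2 lower at an unadjusted p under 0.05, 1 in DESeq2 and 0 in limma-voom. In trachea Tgfb1i1, a focal adhesion protein of smooth muscle, fell (-0.45, from a mean of 91.5 to 66.8 CPM). It was the 1 call in edgeR, with 6 lower and 1 higher at an unadjusted p under 0.05, 2 lower in DESeq2 and 0 in limma-voom. Of all 19859 genes, 1091 were lower and 1261 higher in trachea at that p. In lung none passed in edgeR, DESeq2 or limma-voom, and none had an unadjusted p under 0.05. The list was not tested against the contractile list. Fhl1, a LIM domain protein of muscle, changed by 0.14 in trachea and -0.07 in lung (difference 0.21 ± 0.14, adjusted p = 0.806). Actb, cytoplasmic actin, changed by 0.32 and 0.15 (difference 0.17 ± 0.19, adjusted p = 0.901), which turned to -0.01 with the ribosomal share as covariate. Srf itself went from 66.1 to 64.9 CPM in trachea and from 79.6 to 82.9 in lung.

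Promoter sequences of RefSeq (GRCm38.p6, 250 bases before to 50 after each start) were searched on both strands for the CArG box, the SRF element. Of the 30 contractile genes 24 had a promoter in the table, and 1 of the 24, Myl9, held a match. Counted by window, 1 of their 30 windows held one, against 1.63% of all 32851 windows. Among the called genes Myh11 had no entry, and Tagln and Actg2, which fell in trachea, had none either. The Myl9 window (chr2:156775214-156775513, plus strand) is shown because Myl9, the regulatory light chain of smooth muscle myosin, fell in trachea (-0.85, mean 191 to 106 CPM) and not detectably in lung (-0.16, mean 89.7 to 80.3 CPM). Its match to the CArG pattern, which was not tested as a site, is in capitals.
Myl9: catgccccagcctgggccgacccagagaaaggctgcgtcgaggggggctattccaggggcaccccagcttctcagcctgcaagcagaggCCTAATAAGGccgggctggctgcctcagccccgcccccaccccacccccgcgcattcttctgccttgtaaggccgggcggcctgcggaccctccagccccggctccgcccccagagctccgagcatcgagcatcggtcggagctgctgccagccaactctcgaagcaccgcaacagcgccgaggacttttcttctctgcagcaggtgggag

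Cytl1 had the smallest adjusted p for the difference, and it is a gene of the trachea. Cytl1 (chr5:37735519-37739820, plus strand) encodes a small secreted protein made by cartilage cells. Control tracheas had 302, 300.5, 364 and 307 CPM, and mutant tracheas ranged from 133 to 182 with a median of 143, with no overlap. Control lungs had 2.6, 3.08, 2.21 and 1.93 CPM, and mutant lungs ranged from 2.47 to 3.76 with a median of 3.48, with overlap. Cytl1 was thus 130-fold higher in control trachea than in control lung. It fell by 1.07 ± 0.11 on the log2 scale in trachea, while the lung change was 0.43 ± 0.14 (adjusted p = 0.333), and the difference was -1.50 ± 0.18 (adjusted p = 0.000323). In CPM nearly all of the difference came from the trachea, with -167 ± 17.2 there and 0.867 ± 0.324 in lung. Cytl1 passed in each of the 20 leave-one-out fits, missed in limma-voom (adjusted p = 0.0528) and missed with the ribosomal share as covariate (adjusted p = 0.0791).

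The cartilage genes as a list leaned the same way but varied between embryos. The list's members in cartilage matrix form the collagen II, IX and XI fibrils, the aggrecan network and the linking proteins that hold them together. All 22 were tested. The median difference was -0.96 and 17 were below 0, as were 40.9% of all genes. None passed in edgeR, with 7 lower at an unadjusted p under 0.05, 1 in DESeq2 and 0 in limma-voom. In trachea the median was -0.72, with 0 calls in edgeR, 12 lower at an unadjusted p under 0.05, 3 in DESeq2 and 4 in limma-voom. Of all 19859 genes, 1091 were lower in trachea at that p, 188 in DESeq2 and 56 in limma-voom. In lung the median of the list was 0.08. The summed level was 15881, 18493, 23284 and 23111 CPM in the control tracheas. In the mutant tracheas 1 to 6 it was 9078, 7090, 5954, 9217, 18008 and 18597 CPM. Thus 4 mutants lay far below the controls and replicates 5 and 6 lay within their range. In lung the sum was only 251 to 308 CPM, and 17 of the 22 genes were at least 4-fold higher in control trachea. In replicates 5 and 6 Cytl1 was at 182 and 140 CPM. All 6 mutants lay below every control trachea for Cytl1, so the position of these replicates was given in advance. Whether its fall follows the amount of cartilage was not tested.

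Of the members that both tissues express, Matn4 and Hapln1 were the most abundant in the lower tissue. Matn4, matrilin 4, a filament protein of the extracellular matrix, is at like levels in both control tissues. Its values were 135, 145, 175 and 163 CPM in control tracheas and 78.1 to 148 with a median of 96.5 in mutant tracheas, with overlap at replicate 5 alone. In lung the means were 137 ± 23.2 and 146 ± 10.1 CPM. Its difference of -0.67 ± 0.19 had an adjusted p of 0.3. Hapln1, the link protein of aggrecan, had means of 246 ± 44.9 and 135 ± 64.8 CPM in control and mutant trachea and 35.2 ± 6.36 and 37.5 ± 6.82 in lung. Its difference of -0.95 ± 0.38 had an adjusted p of 0.612. Col2a1, the main cartilage collagen, was at 6469, 9143, 10187 and 10498 CPM in control tracheas and at 1973 to 9211 with a median of 3894 in mutants (difference -1.40 ± 0.73, adjusted p = 0.761). The transcription factors Sox9, Sox5 and Sox6, which drive the cartilage programme, had differences of -0.24, -0.11 and 0.27. Perichondrium and tendon genes had a median difference of -0.29 over 18 members, and elastic matrix genes -0.14 over 14; none of either list passed in edgeR, with 3 and 1 at an unadjusted p under 0.05 and 0 in DESeq2 or limma-voom.

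Of 24 listed ciliated genes, 14 fell in mutant lung, where 0.64% of all genes fell, and none passed in mutant trachea. None of the 24 passed in edgeR for the difference itself, but Lrrc23, another ciliary gene, did. Lrrc23 (chr6:124769863-124779727, minus strand) encodes a component of the radial spokes of cilia and flagella, and is not among the listed ciliated genes. Control lungs had 62.5, 51, 51.6 and 70 CPM, and mutant lungs ranged from 26.9 to 43.3 with a median of 33.9, below every control. Control tracheas had 189, 215, 226 and 244 CPM, and mutant tracheas ranged from 232 to 377 with a median of 292. Of the 6 mutant tracheas 4 lay above every control, and replicates 1 and 5 lay within the control range. Lrrc23 fell by 0.75 ± 0.14 on the log2 scale in lung (adjusted p = 0.00649), and its change in trachea was 0.45 ± 0.14 (adjusted p = 0.197). The difference was 1.20 ± 0.20 (adjusted p = 0.0142). In CPM the change was -23.9 ± 5.14 in lung and 80.6 ± 26.8 in trachea, from a control level 3.72-fold higher in trachea. The call was lost without lung control replicate 4 (adjusted p = 0.064), with the ribosomal share as covariate (0.95, adjusted p = 0.861) and with a replicate block of genotype and number (1.19, adjusted p = 0.0662).

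All 24 ciliated genes listed had a difference above 0, as did 11733 of all 19859 genes, with a median of 0.61. By edgeR 0 of the 24 passed, with 15 higher at an unadjusted p under 0.05, 3 in DESeq2 and 0 in limma-voom. Over all genes these last 3 counts were 1040, 47 and 2. In lung 14 of the 24 fell, where 0.64% of all genes fell, and the median was -0.70. DESeq2 and limma-voom each called 15 of the list lower there, where they called 207 and 201 of all genes. In trachea 0 passed in edgeR, with 3 lower at an unadjusted p under 0.05 and 0 in DESeq2 or limma-voom, and the median was -0.01. The 14 include Foxj1 and Myb, transcription factors of ciliated cell differentiation; Dnah5, Dnah9, Dnali1 and Dynlrb2, parts of dynein motors; Rsph1 and Rsph4a, radial spoke heads; Tekt1 and Tekt2, tektins of the axoneme; and Hydin of the central pair. Ccdc40, Cfap126 and Fam183b complete them. The 14 were 16 without the 2 shallowest libraries, 4 without lung control replicate 1, 9 without lung mutant replicate 6 and 0 with the ribosomal share as covariate, which left a lung median of -0.49; the ribosomal share was higher in mutant lung, as given above. Both the list and its direction in lung were known from earlier results of these data, so the count is no independent evidence of it.

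Foxj1 stood at 68.2, 59.1, 52.9 and 61.5 CPM in control lungs and at 33.4 to 47.4 with a median of 38.2 in mutant lungs, without overlap. In control tracheas it stood at 214, 213, 234 and 244 CPM and in mutant tracheas at 182 to 304 with a median of 215, with full overlap. Its changes were -0.63 ± 0.12 in lung and -0.02 ± 0.12 in trachea, and the difference of 0.61 ± 0.17 had an adjusted p of 0.267. Dnah5, a heavy chain of the outer dynein arm, went from 18.2 ± 2.61 to 9.99 ± 2.13 CPM in lung and from 122 ± 19.9 to 122 ± 23 in trachea (difference 0.86 ± 0.22, adjusted p = 0.175). Fam183b, an axoneme-associated gene, had the largest difference of the list, 1.09 ± 0.29 (adjusted p = 0.23), with 7.49 to 3.16 CPM in lung and 51.2 to 46 in trachea. Tppp3, a tubulin-polymerizing protein of ciliated cells, went from 83.5 to 63.4 CPM in lung, which did not pass (-0.40, adjusted p = 0.347), and from 385 to 405 in trachea. Ccdc113, with the smallest difference (0.12), changed by -0.42 in trachea and -0.54 in lung, neither of which passed. Mcidas and Ccno, which start the amplification of basal bodies, changed by -0.51 and -0.52 in lung and by 0.24 and 0.16 in trachea without passing in either.

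The control level bears on how much these values can tell. The ciliated list summed to 454 to 562 CPM in control lungs and 293 to 375 in mutant lungs, a mean change of -177 ± 25.6 CPM (-35.1%) without overlap. In trachea the sums ran from 1643 to 2157 CPM over the controls and from 1669 to 2286 over the mutants, a change of -23.2 ± 160 CPM (-1.2%). These sums were not tested between tissues. In CPM, a loss in trachea as large as that in lung lies within 1 SE of the value measured, because the tracheal level is several times higher. A loss of the same share is another matter. At 35.1% of a mean control sum of 1942 CPM, it would lie several SE below the value measured.

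**Figure D3:**
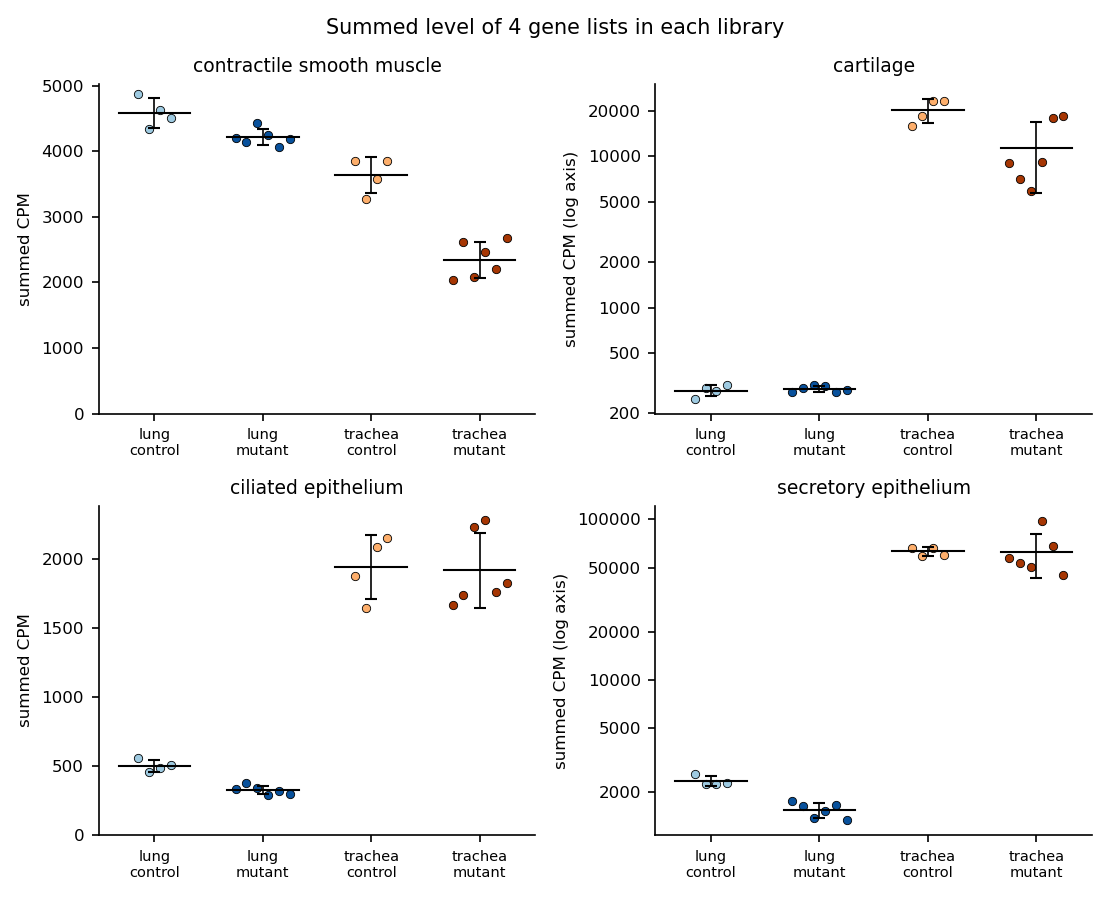
Summed CPM of 4 gene lists in each of the 20 libraries, with mean and SD; the cartilage and secretory axes are logarithmic. Contractile sums separate mutants from controls in trachea, ciliated and secretory sums separate them in lung, and the cartilage sums of mutant trachea replicates 5 and 6 lie among the controls.

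Ciliary promoters often carry the site of the RFX factors, which act with Foxj1 on axoneme genes. The half-site GTTGCC was searched on both strands. Of the 24 listed ciliated genes 20 had a promoter in the table, and 11 of the 20 held a match. Counted by window, 12 of their 25 windows held one, against 12.5% of all 32851 windows. Lrrc23 held 2 matches, as did Tekt1, Tekt2 and Fam183b, which fell in lung. Hydin and Dynlrb2, which also fell, held 1 each. So did Rfx2, Rfx3, Mcidas, Ccno, Ccdc113 and Spef2, which did not pass in lung. Dnah5, Dnah9, Dnali1, Ccdc40, Cfap126 and Myb fell in lung and held none. Matches were thus found both in genes that fell and in genes that did not pass. Tekt1 had 2 windows, of which the 1 with matches is printed. A match describes these letters and was not tested as a site. The windows are chr6:124779678-124779977 for Lrrc23, chr11:72361833-72362132 for Tekt1 and chr11:58801911-58802210 for Fam183b, all on the minus strand, with the half-sites in capitals on either strand.
Lrrc23: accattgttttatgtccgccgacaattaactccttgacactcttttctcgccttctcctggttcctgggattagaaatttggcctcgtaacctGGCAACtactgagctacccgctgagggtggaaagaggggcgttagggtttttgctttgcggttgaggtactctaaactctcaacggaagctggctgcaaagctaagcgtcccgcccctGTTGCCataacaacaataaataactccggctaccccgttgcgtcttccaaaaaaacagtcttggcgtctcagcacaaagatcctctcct
Tekt1: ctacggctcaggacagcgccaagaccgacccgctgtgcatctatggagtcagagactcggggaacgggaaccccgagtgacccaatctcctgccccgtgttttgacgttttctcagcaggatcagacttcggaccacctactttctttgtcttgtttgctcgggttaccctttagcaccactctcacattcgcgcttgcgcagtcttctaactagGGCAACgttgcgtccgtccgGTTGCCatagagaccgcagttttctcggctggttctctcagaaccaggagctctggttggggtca
Fam183b: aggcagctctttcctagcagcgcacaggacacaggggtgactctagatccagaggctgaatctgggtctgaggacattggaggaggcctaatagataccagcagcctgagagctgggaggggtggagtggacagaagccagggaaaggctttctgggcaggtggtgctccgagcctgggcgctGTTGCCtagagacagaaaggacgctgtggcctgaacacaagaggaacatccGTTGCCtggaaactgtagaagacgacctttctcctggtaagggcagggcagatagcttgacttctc

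Of 16 secretory genes tested, 14 had a difference above 0, as did 11733 of all 19859 genes, with a median of 0.63. None passed in edgeR, with 8 higher at an unadjusted p under 0.05, 1 in DESeq2 and 0 in limma-voom. Over all genes the counts higher were 1040, 47 and 2. In lung 4 of the 16 fell, where 0.64% of all genes fell: Gabrp, a GABA receptor subunit of airway epithelium; Aldh1a1, a retinaldehyde dehydrogenase; and Cyp2f2 and Cyp2s1, cytochromes P450 of club cells. The 4 were 6 without the 2 shallowest libraries, 2 without lung control replicate 4 or lung mutant replicate 4, 1 without lung control replicate 1 and 0 with the ribosomal share as covariate. In lung DESeq2 called 5 of the list lower and limma-voom 7, where they called 207 and 201 of all genes. In trachea none passed in edgeR, with 1 higher and 1 lower at an unadjusted p under 0.05, and 1 lower in both DESeq2 and limma-voom. Scgb1a1, the club cell secretoglobin, stood at 721, 705, 605 and 703 CPM in control lungs and at 279 to 420 with a median of 356 in mutant lungs, without overlap (-0.94 ± 0.26, adjusted p = 0.154). That SE uses edgeR's spread shared with trachea, where libraries varied more. In control tracheas it stood at 2187, 1884, 1733 and 2432 CPM. Mutant tracheas 1 to 6 had 1503, 1127, 1275, 3967, 1612 and 1213 CPM, so that 5 of the 6 lay below every control and replicate 4 lay above all of them. The difference of 0.74 ± 0.37 (adjusted p = 0.743) dropped to 0.33 without that library. Scgb3a2, another secretoglobin, went from 531 ± 70.4 to 378 ± 61 CPM in lung and from 24295 ± 1398 to 25090 ± 4754 in trachea (difference 0.54 ± 0.19, adjusted p = 0.512). It was 45.8-fold higher in control trachea, so the whole lung level is smaller than the spread between mutant tracheas.

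Most of the 127 genes that fell in lung were trachea-rich. In the controls 77 of the 127 were at least 4-fold higher in trachea than in lung, 50 were within 4-fold and 0 were at least 4-fold higher in lung. Over all genes tested the same classes held 2472, 16090 and 1297. In trachea the 127 had a median change of -0.14, and 96 (75.6%) were below 0, against 46.5% of all genes. Of the 127, 2 also fell in trachea, Gm1821 and Tymp, and 1 passed for the difference, Lrrc23. The 60 genes that fell in trachea had a median change of -0.14 in lung, and 49 (81.7%) were below 0, against 59.5% of all genes. Of these 60, 16 were at least 4-fold higher in control trachea, 41 were within 4-fold and 3 were at least 4-fold higher in control lung. The calls shared by both tissues made up 1.57% of the lung falls and 3.33% of the trachea falls. Classes and effects share the control libraries, so these counts are a description.

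**Figure D4:**
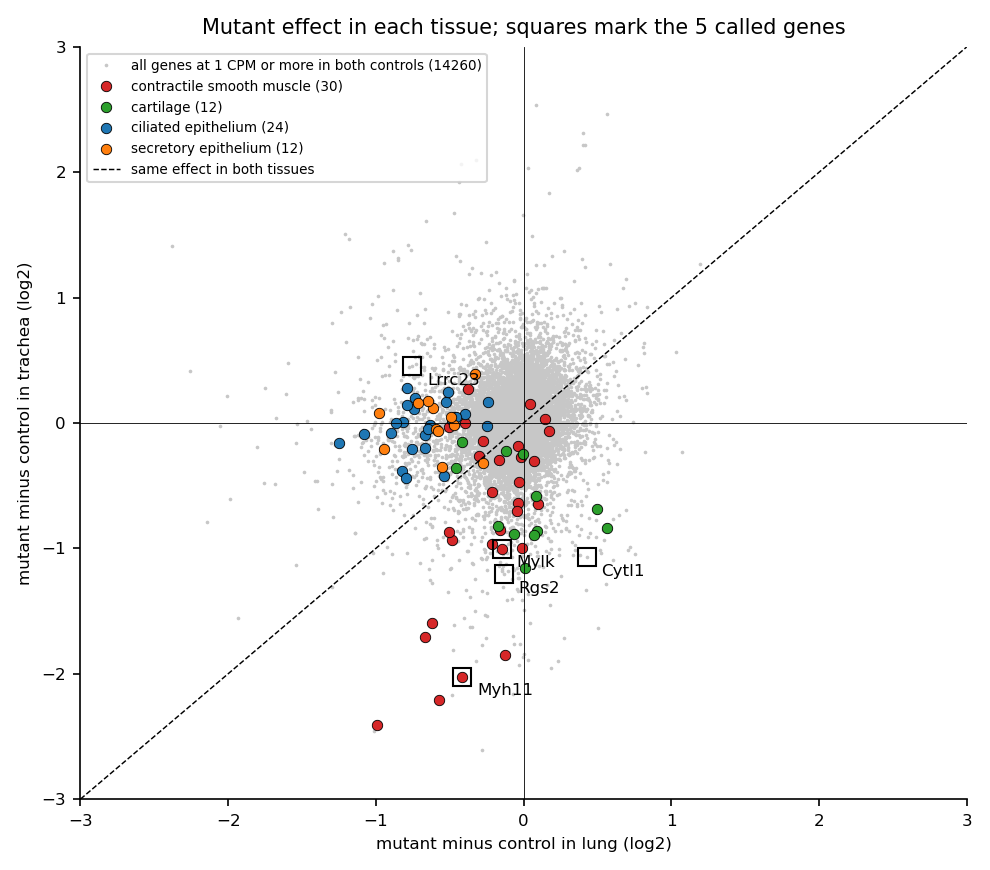
Mutant minus control log2 change in lung (x) and trachea (y) for the 14260 genes at 1 CPM or more in the controls of both tissues, of which 3 lie outside the axes; colours mark 4 gene lists, squares the 5 called genes, and the dashed line equal effects. Of the 30 contractile genes 23 lie below the line and 7 above it; all 24 ciliated genes lie above it, with trachea changes from -0.44 to 0.28.

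The 2 genes called in both tissues gave differences near 0. Gm1821, a predicted gene model (chr14:46084028-46085000), stood at 27.4, 28.4, 30.9 and 25.1 CPM in control lungs and at 0.564 to 1.42 with a median of 0.874 in mutant lungs. In control tracheas it stood at 28.9, 48.6, 32.9 and 33.6 CPM and in mutant tracheas at 0.63 to 1.54 with a median of 1.13. All 12 mutant libraries lay far below all 8 controls. The log2 changes were -4.93 in trachea and -4.94 in lung, and the difference was 0.01 ± 0.27 (95% interval -0.52 to 0.54). Tymp, thymidine phosphorylase, had changes of -1.04 ± 0.18 in trachea and -0.89 ± 0.20 in lung, with a difference of -0.15 ± 0.27 (95% interval -0.69 to 0.39). Chrm2, the M2 muscarinic receptor through which acetylcholine acts on airway smooth muscle, fell in trachea from 32.3 ± 3.99 to 5.81 ± 3.11 CPM. In lung it went from 11.5 ± 1.77 to 5.71 ± 1.77 CPM, without overlap. Its difference of -1.44 ± 0.49 had an adjusted p of 0.493.

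At an adjusted p under 0.2 there were 68 genes, of which 52 were above 0 and 16 below. Dnah3, an inner arm dynein, had a difference of 1.32 ± 0.26 (adjusted p = 0.104), with 20.7 to 9.55 CPM in lung and 58.6 to 67.3 in trachea. Cldn8, a claudin of epithelial tight junctions, had 2.04 ± 0.40 (adjusted p = 0.104), from 1.07 to 0.251 CPM in lung and 46.3 to 45.6 in trachea. Gabrp had 1.06 ± 0.25 (adjusted p = 0.164), from 11.7 to 5.94 CPM in lung and 77.6 to 82.1 in trachea. Below 0, Crispld2, a secreted protein of mesenchyme, had -1.19 ± 0.26 (adjusted p = 0.133), from 37.6 to 42.9 CPM in lung and 46.4 to 23 in trachea; only its trachea change passed. DESeq2 called 67 genes for the difference, 47 above 0 and 20 below, with all 5 among them.

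Among markers of other cell types, erythroid genes had a median difference of 1.67, with all 8 above 0, and summed to 384 to 750 CPM in control tracheas and 548 to 3782 in mutant tracheas, the highest in replicate 4. Leukocyte genes had a median of 0.38 over 18 members, with sums of 439 to 525 CPM in control and 487 to 1013 in mutant trachea. None of either list passed in edgeR for the difference. At an unadjusted p under 0.05, 7 and 3 were higher, with 1 and 0 in DESeq2, and 0 in limma-voom. Over all 19859 genes the counts higher were 1040, 47 and 2. Replicate 6 had an erythroid sum of 548 CPM, within the range of the controls. Replicates 1 and 6 had ribosomal shares of 0.758% and 0.773%, below every control trachea. In these 2 mutant tracheas Myh11 was at 68.6 and 60.8 CPM and Mylk at 111 and 96. Rgs2 was at 35.5 and 38.7 CPM and Cytl1 at 142 and 140. For these genes all 6 mutant tracheas lay below every control, so the position of any 2 of them was given in advance. The part of blood or of the ribosomal share in the calls was not tested by these values. Lrrc23 was at 242 and 297 CPM, of which only replicate 6 lay above every control.

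Alveolar, endothelial and basal cell genes had medians near that of all genes: 0.00 over 13 alveolar type 1, 0.14 over 19 alveolar type 2, 0.09 over 18 endothelial and -0.07 over 10 basal genes, with none called for the difference. At an unadjusted p under 0.05 these lists had 2, 4, 0 and 1 genes, in DESeq2 1, 3, 0 and 0, and in limma-voom 0. S100g, a calcium-binding protein counted here with alveolar type 2 genes, rose in trachea by 4.35 ± 0.96 (adjusted p = 0.0484) from 0 to 0.0447 CPM in controls to 0 to 1.89 in mutants, against 17.6 to 26.3 in control lung. The trachea values rest on at most 20 reads per library, and the highest is in replicate 4. Cell cycle genes had a median of -0.14, with 12 of 16 below 0: in lung all 16 were above 0 with a median of 0.26, and in trachea 15 were, with a median of 0.11. None passed in either tissue or for the difference in edgeR, DESeq2 or limma-voom; at an unadjusted p under 0.05 there were 6 in lung, 2 in trachea and 0 for the difference.

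The other lists had no call for the difference in edgeR or limma-voom. Smooth muscle and mesenchyme genes of the airway had a median of -0.14 (15 tested), vascular smooth muscle and pericyte genes 0.07 (13), neuroendocrine and neural genes 0.31 (17), mesothelial genes 0.53 (8), skeletal muscle genes 0.82 (16) and cardiac genes -0.54 (8). Thyroid genes had 0.85 (9), thymus genes 0.34 (3), oesophagus and squamous genes -0.68 (10), adipose genes 0.61 (4), immediate early genes -0.13 (10) and hypoxia and glycolysis genes 0.23 (13). At an unadjusted p under 0.05 they had, in that order, 2, 1, 2, 2, 0, 0, 0, 0, 3, 1, 1 and 0 members, and DESeq2 called 1 skeletal muscle gene alone. Pth, Gcm2 and Casr of the parathyroid were too low to be tested. The medians of the airway mesenchyme, vascular, basal, alveolar type 1, cardiac, thymus, oesophagus and immediate early lists took either sign across the alternatives, while those of the contractile, cartilage, ciliated and secretory lists kept theirs in all 30. Those 4 ranged from -0.63 to -0.34, -1.17 to -0.75, 0.43 to 0.68 and 0.35 to 0.71.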

How the data were processed

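Messenger RNA was sequenced as single reads of 75 bases from TruSeq V2 libraries, a kit that does not mark strand, per the labels' protocols. The authors deposited unnormalized read counts for each gene, obtained with featureCounts 1.6.2 and GENCODE M17, per the file headers. Alignment used STAR and GRCm38, per the submitters' processing notes, which name no STAR version. At default counting options, reads that map to several places or overlap 2 genes are not counted, so genes with near-identical copies or overlapping partners are uncertain.

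The 2 E18.5 tables (53715 genes each) were joined by gene ID; symbols were found for 53620 of them in GENCODE. All 20 libraries were fitted together with edgeR 4.0.16 in R 4.3.3: filterByExpr, TMM scaling, 4 group means and a robust quasi-likelihood fit sharing 1 spread, with two-sided F tests and Benjamini-Hochberg adjustment at 0.05. The SE is the size of a log2 change divided by the square root of F; 95% intervals use the normal quantile. limma 3.58.1 (voom with weights by tissue) and DESeq2 1.42.0 were alternatives, beside other scalings and filters, replicate blocks, leaving out each library, and 2 alternatives added after seeing the data: leaving out the 2 shallowest libraries and a ribosomal share covariate. The fit was tested on simulated counts. No 2 libraries of a group agreed within sampling noise (lowest chi-square per degree of freedom 10.3). Libraries count as replicates because the labels give 1 embryo's lung or trachea each; litters are not named.

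The genes named are Myocd, the calls of at least 5 CPM in 1 group, up to 10 per direction, up to 3 called members of each list, and, for 5 lists with fewer than 2 calls, the 2 members highest in the lower control tissue. This gave 14 genes. The members, the 26 gene lists and the tests were chosen with earlier results of these data known. No p-value was adjusted over a list alone. Counting error is covered by the tests; the depth per library was 11.7 to 32.8 M counts.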

Additional observations from a re-analysis of the deposited data

Results flagged for a closer look

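The mutant effect differed between trachea and lung for the 5 called genes, by the test of the difference itself (log2, trachea minus lung): -1.61 for Myh11, -1.50 for Cytl1, -1.07 for Rgs2, -0.86 for Mylk and 1.20 for Lrrc23.

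A single library stood apart from the rest of its group in 7 of 76 groups of values checked with Dixon's ratio, where chance gives about 1 in 20. Cytl1 was at 364 CPM in trachea control replicate 3, against 300.5 to 307 in the other controls. Mylk was at 757 CPM in lung mutant replicate 3, against 662 to 674. Fhl1 was at 1261 CPM in lung control replicate 1, against 1186 to 1194. Scgb1a1 was at 605 CPM in lung control replicate 3, against 703 to 721, and at 3967 CPM in trachea mutant replicate 4, against 1127 to 1612. Scgb3a2 was at 636 CPM in lung control replicate 1, against 490.5 to 506. The secretory list summed to 2596 CPM in the same library, against 2257 to 2303. What set these libraries apart was not tested.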

How the results depend on the processing

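For the trachea-lung difference, the 5 calls were 5 with RLE scaling, TMM within each tissue, no filter and a filter of 1 CPM in both controls. In limma-voom there were also 5, but 2 were above 0 and Cytl1 was not among them. There were 67 in DESeq2 (47 above 0), 12 without the 2 shallowest libraries (6 above 0) and 1 with the ribosomal share as covariate. Leaving out 1 library gave 2 to 9. The 70 trachea calls became 289 in DESeq2 (99 higher) and 26 with the covariate and 20 to 87 on leaving out 1 library (20 without trachea control replicate 3, 33 without trachea control replicate 4, 35 without trachea mutant replicate 3). The 130 lung calls became 205 in limma-voom, 216 in DESeq2, 241 without the 2 shallowest libraries and 2 with the covariate and 42 to 195 on leaving out 1 library (42 without lung control replicate 1, and 84, 83 and 81 without lung control replicate 4, lung mutant replicate 4 and lung mutant replicate 6). Of 420 values of the 14 genes named by rule, 397 kept direction and call, 22 lost the call and 1 reversed: Actb, -0.0058 with the covariate. The median over all genes ranged from 0.03 with TMM within each tissue to 0.11 in DESeq2. Lung and trachea replicates share numbers, but no label says that a number is 1 embryo, and the deviations of same-numbered pairs correlated at 0.0413 to 0.232, over 0.1 in 6 of 10, which misses the rule that every pair exceed 0.1. As hints from the data, not the design, all 10 lung libraries correlated best with their own number, and all 10 pairs had the same Xist state. A block of genotype and number gave 5 calls, without Lrrc23 (1.19, adjusted p = 0.0662), and a block of number gave 6. Depth limits low genes most: S100g in trachea rests on few reads.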
